A study of Mus musculus with 16 samples.

Results

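The 10 genes described here form a set named for platelet thrombin and integrin signalling, although not all act in these steps in mouse platelets. They are F2r, F2rl2, F2rl3, P2rx1, Pear1, Rgs18, Rasgrp2, Plek, Fermt3 and Rab27b, taken by name from the table of array signals, with 1 probe set each. They are 10 of 16258 genes and probe sets tested, and all 10 passed the filter on dim signals on 16 of 16 arrays. Messenger RNA was measured in suspensions of mouse fetal liver cells, the organ in which most blood forms at midgestation. Embryos carried both the ERG transgene and the GATA1s knock-in allele (ERG/GATA1s), the GATA1s allele (GATA1s), the ERG transgene (ERG) or neither (wild type, WT), and were taken at embryonic day 14.5 (E14.5) or 12.5 (E12.5). Each of the 8 groups held 2 arrays, 1 labelled female and 1 labelled male. GATA1, encoded on the X chromosome, drives red cell and megakaryocyte genes, and GATA1s is its short isoform. ERG belongs to the ETS transcription factors and acts in stem cells and megakaryocytes. The promoter and species of the transgene, the number of copies of the GATA1s allele in females, the mouse strain, and whether embryos were pooled are details not given in the sources used. The p-values therefore measure the spread between these samples, which may in part be technical.

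Megakaryocytes are the bone marrow and fetal liver cells that shed platelets, and they load platelets with the machinery described here while they mature. Thrombin cleaves protease-activated receptors on the platelet surface. These receptors signal through G proteins to calcium and protein kinase C, and RGS proteins shorten the signal by speeding GTP hydrolysis. Calcium then turns on the small GTPase Rap1, talin and kindlin bind the tail of the platelet integrin, the integrin binds fibrinogen, and granules are released.

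The region around the transcription start is shown for the 3 thrombin receptor genes and for Fermt3, because the results turn on these genes. Each sequence runs from 250 bases before to 50 bases after the start, on the gene's own strand, as given by RefSeq for GRCm38.p6. Capitals mark matches on either strand to motifs of 3 families. The GATA motifs searched were AGATAA and also TGATAA, the motif of the ETS family was GGAAG, and that of the RUNX family was TGTGGT. F2r lies at chr13:95618417-95618716 (minus strand), F2rl2 at chr13:95696670-95696969 (plus strand), F2rl3 at chr8:72761409-72761708 (plus strand) and Fermt3 at chr19:7019420-7019719 (minus strand).
F2r: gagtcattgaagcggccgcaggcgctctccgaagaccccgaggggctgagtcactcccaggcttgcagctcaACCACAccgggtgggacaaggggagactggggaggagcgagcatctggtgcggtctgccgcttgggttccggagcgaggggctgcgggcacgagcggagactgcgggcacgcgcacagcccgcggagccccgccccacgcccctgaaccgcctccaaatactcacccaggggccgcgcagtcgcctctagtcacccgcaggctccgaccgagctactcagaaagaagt
F2rl2: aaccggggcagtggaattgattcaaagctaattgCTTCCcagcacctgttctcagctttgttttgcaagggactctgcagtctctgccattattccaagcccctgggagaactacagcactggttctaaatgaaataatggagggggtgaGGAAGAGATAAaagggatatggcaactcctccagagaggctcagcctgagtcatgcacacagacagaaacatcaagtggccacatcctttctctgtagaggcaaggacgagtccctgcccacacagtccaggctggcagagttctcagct
F2rl3: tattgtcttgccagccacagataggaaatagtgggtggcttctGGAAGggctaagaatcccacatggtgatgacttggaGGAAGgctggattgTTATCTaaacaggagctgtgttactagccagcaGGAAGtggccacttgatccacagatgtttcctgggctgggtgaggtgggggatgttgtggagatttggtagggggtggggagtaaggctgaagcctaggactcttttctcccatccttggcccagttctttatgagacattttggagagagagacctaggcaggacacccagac
Fermt3: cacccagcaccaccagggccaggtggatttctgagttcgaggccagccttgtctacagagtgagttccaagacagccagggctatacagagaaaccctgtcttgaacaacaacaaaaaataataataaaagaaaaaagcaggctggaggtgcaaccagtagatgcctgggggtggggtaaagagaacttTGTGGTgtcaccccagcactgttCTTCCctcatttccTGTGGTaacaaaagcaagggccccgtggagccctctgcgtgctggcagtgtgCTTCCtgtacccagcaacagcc

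The windows differ in what they hold. F2rl2 has a GATA match at position -95 from the start that directly follows an ETS match on the same strand, so that the 2 form 1 run of capitals. F2rl3 has 1 GATA match and 3 ETS matches. F2r has 1 RUNX match and no GATA or ETS match, and Fermt3 has 2 ETS and 2 RUNX matches and no GATA match. Of the 8 members with a listed promoter (Rgs18 and Rab27b had none matched), 3 held a GATA match, F2rl2, F2rl3 and P2rx1. An ETS match was found in 5 and a RUNX match in 2. Among all 32851 promoters of the same length, 18.6% held the GATA motifs, 71.4% the ETS motif and 16.8% the RUNX motif. A match says only that these letters are present in the window.

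The deposited values are log2 signals, which ran from 1.96 to 13.32 with array medians from 4.79 to 4.94. A difference of 1 on this scale is a doubling. The number of arrays limits the precision, and the median residual SD was 0.1615. Erg signal lay between 5.32 and 6.01 and Gata1 signal between 9.22 and 10.02 on the 16 arrays. Since neither the probes' nor the transgene's sequence is known here, labels were not checked against either. The sex markers (Xist against a mean of Y-linked genes) opposed the label on 3 arrays: E14.5 ERG/GATA1s labelled female, E12.5 GATA1s labelled male and E12.5 ERG/GATA1s labelled male. On 2 others, E14.5 ERG labelled male and E12.5 WT labelled male, both Xist and the Y-linked mean were raised, and E12.5 ERG labelled male lay between. Counts of members are therefore also given without the 3 opposing arrays. All 3 carry the GATA1s allele, and leaving them out leaves 1 array in each of their groups. Where a comparison uses these arrays, lower counts mix this loss of replicates with any effect of the labels. Comparisons that use none of them kept their differences, and only their tests changed. At E14.5 these included Plek in GATA1s against WT (1.25) and Rgs18 in ERG against WT (-1.455). Shares of all tests that passed are given for the main fit only, so counts of members in other fits stand without that share. Below, the first value of a pair is from the array labelled female and the second from the array labelled male.

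**Figure D1:**
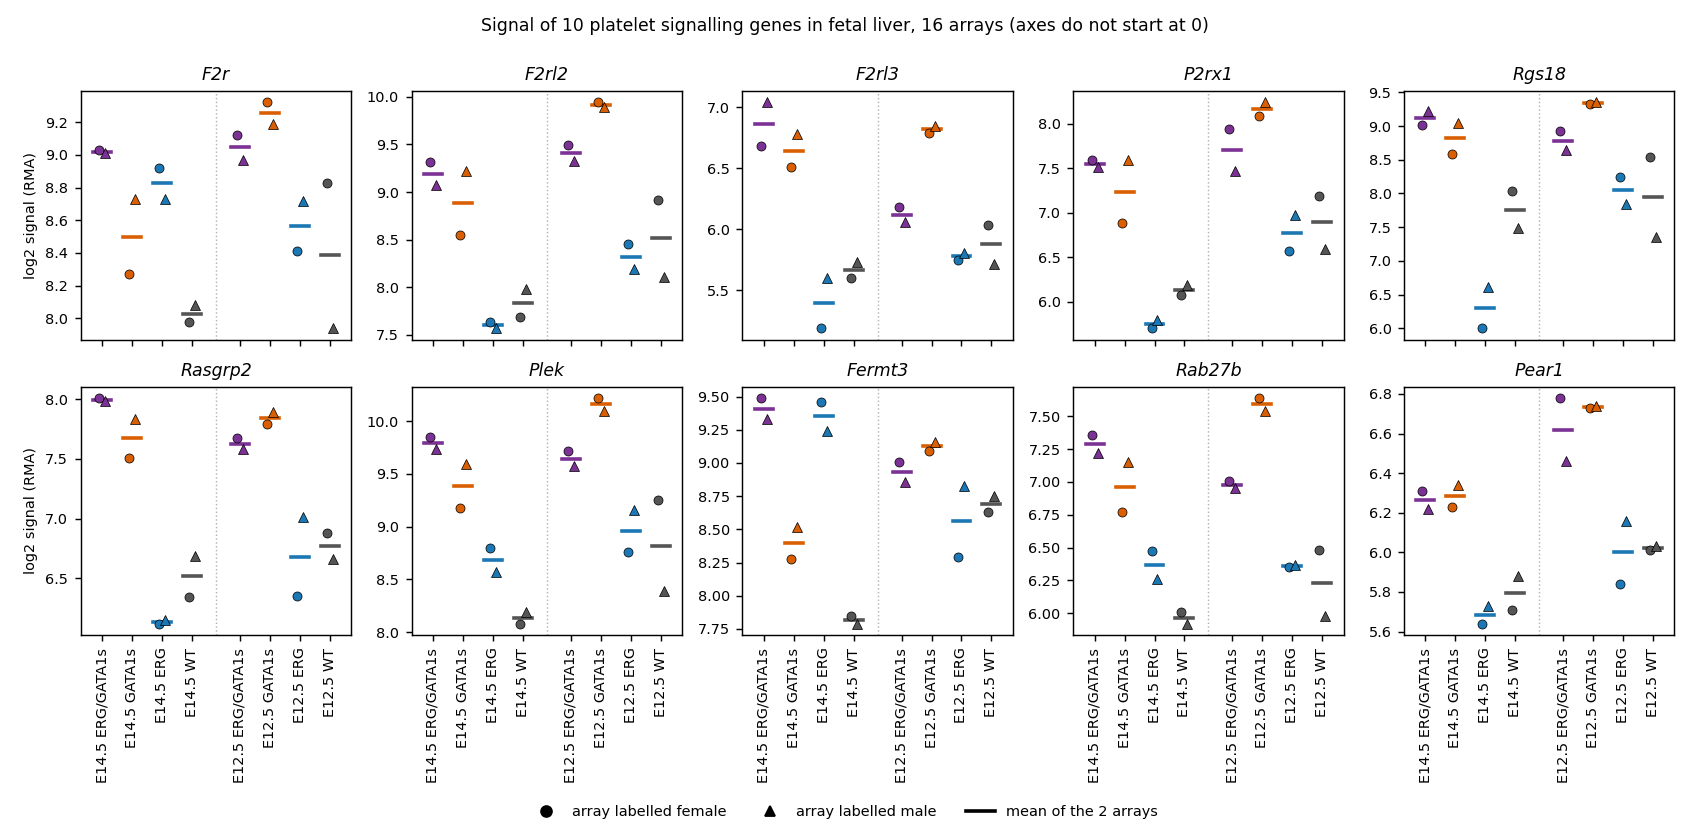
Log2 signal (vertical axis, 1 panel a gene, not starting at 0) of the 10 genes on 16 arrays, by stage and genotype. Circles are arrays labelled female, triangles arrays labelled male, and bars the mean of the 2 arrays. For 5 genes (Rgs18, F2rl3, Rasgrp2, Rab27b and Pear1) the 8 arrays with the GATA1s allele all lie above the 8 without it, and Fermt3 is high in both E14.5 groups with the ERG transgene.

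The genes that receive the signal come first. F2rl3 encodes PAR4, the receptor through which thrombin signals in mouse platelets. Its signal at E14.5 was 6.68 and 7.04 in ERG/GATA1s, 6.51 and 6.78 in GATA1s, 5.19 and 5.6 in ERG, and 5.6 and 5.73 in WT. At E12.5 it was 6.18 and 6.06 in ERG/GATA1s, 6.79 and 6.85 in GATA1s, 5.75 and 5.81 in ERG, and 6.04 and 5.72 in WT. All 8 arrays with the GATA1s allele were above all 8 without it, with 6.06 as the lowest of the first set and 6.04 as the highest of the second. E12.5 ERG/GATA1s stood apart from both its neighbours in the order of group means, E14.5 GATA1s above it and E12.5 WT below it.

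F2rl2 encodes PAR3, which in mouse platelets binds thrombin and helps it to cleave PAR4. At E14.5 F2rl2 signal was 9.31 and 9.07 in ERG/GATA1s, 8.55 and 9.22 in GATA1s, 7.64 and 7.57 in ERG, and 7.69 and 7.98 in WT. The E12.5 values were 9.49 and 9.33 in ERG/GATA1s, 9.94 and 9.89 in GATA1s, 8.45 and 8.19 in ERG, and 8.92 and 8.11 in WT. E12.5 GATA1s was highest and E14.5 ERG lowest, each apart from its neighbour, while the female-labelled E12.5 WT array (8.92) was above the female-labelled E14.5 GATA1s array (8.55).

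F2r encodes PAR1, the main thrombin receptor of human platelets, which mouse platelets largely lack. F2r signal at E14.5 was 9.03 and 9.01 in ERG/GATA1s, 8.27 and 8.73 in GATA1s, 8.92 and 8.73 in ERG, and 7.98 and 8.08 in WT. At E12.5 the values were 9.12 and 8.97 in ERG/GATA1s, 9.32 and 9.19 in GATA1s, 8.41 and 8.72 in ERG, and 8.83 and 7.94 in WT. Unlike the other receptors, F2r was higher in both E14.5 ERG arrays than in either E14.5 WT array, and the E14.5 GATA1s group stood below E14.5 ERG in the order of means, with 8.73 as the highest GATA1s value and the lowest ERG value.

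P2rx1 encodes the ATP-gated cation channel that amplifies platelet activation. Its E14.5 signal was 7.59 and 7.51 in ERG/GATA1s, 6.88 and 7.59 in GATA1s, 5.70 and 5.79 in ERG, and 6.07 and 6.19 in WT. E12.5 arrays gave 7.94 and 7.47 in ERG/GATA1s, 8.09 and 8.24 in GATA1s, 6.57 and 6.97 in ERG, and 7.19 and 6.59 in WT. E12.5 GATA1s was highest and E14.5 ERG lowest, both apart from their neighbours in the order of means. Each of the groups from E12.5 ERG/GATA1s down to E12.5 WT overlapped the next in that order, and E12.5 ERG did not overlap E14.5 WT.

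Pear1 encodes a contact receptor that sustains platelet aggregation. Its signal was 6.31 and 6.22 in ERG/GATA1s, 6.23 and 6.34 in GATA1s, 5.64 and 5.73 in ERG, and 5.71 and 5.88 in WT at E14.5. It was 6.78 and 6.46 in ERG/GATA1s, 6.73 and 6.74 in GATA1s, 5.84 and 6.16 in ERG, and 6.01 and 6.03 in WT at E12.5. Its range over all arrays, 1.14, was the narrowest of the 10 genes, and the 8 arrays with the GATA1s allele (lowest 6.22) stayed above the 8 without it (highest 6.16).

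Rgs18, which limits signalling from Gq and Gi proteins in megakaryocytes and platelets, had the widest range of the 10 genes, 3.35. At E14.5 Rgs18 signal was 9.02 and 9.23 in ERG/GATA1s, 8.59 and 9.05 in GATA1s, 6.0 and 6.61 in ERG, and 8.04 and 7.48 in WT. At E12.5 Rgs18 signal was 8.92 and 8.64 in ERG/GATA1s, 9.32 and 9.35 in GATA1s, 8.25 and 7.84 in ERG, and 8.54 and 7.36 in WT. The 2 E14.5 ERG arrays were the lowest of all 16, below the lowest WT array, while the E12.5 ERG and WT arrays overlapped.

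Rasgrp2 encodes the calcium-responsive exchange factor that loads Rap1 with GTP. Rasgrp2 signal at E14.5 was 8.01 and 7.98 in ERG/GATA1s, 7.51 and 7.83 in GATA1s, 6.12 and 6.15 in ERG, and 6.34 and 6.69 in WT. At E12.5 it stood at 7.67 and 7.58 in ERG/GATA1s, 7.79 and 7.89 in GATA1s, 6.35 and 7.01 in ERG, and 6.88 and 6.66 in WT. The split by the GATA1s allele was wider here than for any other member, with 7.51 as the lowest array carrying the allele and 7.01 as the highest without it.

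Plek encodes pleckstrin, a main substrate of protein kinase C in platelets. Plek signal at E14.5 was 9.85 and 9.74 in ERG/GATA1s, 9.18 and 9.59 in GATA1s, 8.80 and 8.57 in ERG, and 8.08 and 8.19 in WT. At E12.5 it was 9.72 and 9.57 in ERG/GATA1s, 10.22 and 10.10 in GATA1s, 8.76 and 9.16 in ERG, and 9.25 and 8.39 in WT. The 4 groups with the allele had the 4 highest means, and the female-labelled E12.5 WT array (9.25) was the 1 array without it that exceeded an array with it (9.18).

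Fermt3 encodes kindlin-3, which binds the integrin tail and is made in blood cells generally. At E14.5 Fermt3 signal was 9.49 and 9.33 in ERG/GATA1s, 8.28 and 8.52 in GATA1s, 9.46 and 9.24 in ERG, and 7.85 and 7.79 in WT. At E12.5 Fermt3 signal was 9.01 and 8.86 in ERG/GATA1s, 9.09 and 9.16 in GATA1s, 8.29 and 8.83 in ERG, and 8.63 and 8.75 in WT. Its order differed from that of the other members: E14.5 ERG/GATA1s and E14.5 ERG were highest and overlapped each other, and E14.5 WT was lowest and overlapped no group.

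Rab27b encodes a small GTPase of granule secretion in platelets. Its signal at E14.5 came to 7.36 and 7.22 in ERG/GATA1s, 6.77 and 7.15 in GATA1s, 6.47 and 6.26 in ERG, and 6.01 and 5.92 in WT. At E12.5 it came to 7.01 and 6.95 in ERG/GATA1s, 7.64 and 7.54 in GATA1s, 6.35 and 6.37 in ERG, and 6.48 and 5.98 in WT. The lowest array with the allele, at 6.77, exceeded the highest without it, at 6.48.

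The first comparison asked what the GATA1s allele alone did. All 10 genes were higher in GATA1s than in WT livers over both stages, in 4 of 4 comparisons of arrays matched for stage and labelled sex, and all 10 passed limma's test after Benjamini-Hochberg adjustment over all 16258 tests (threshold 0.05). In the same comparison 3.81% of all tests passed, 2.18% with a higher signal. The members were chosen with earlier results of these data known. Their count beside these shares is therefore a description and not a test of the set. The median difference was 1.15 for the 10 genes and 0.005 for all tests. In bulk livers, a change in the number of cells of a type and a change in RNA per cell cannot be told apart.

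The gains from the GATA1s allele were largest for Plek and smallest for Fermt3. Plek rose by 1.30 ± 0.16 (SE; 2.45-fold, adjusted p = 0.000918), F2rl2 by 1.23 ± 0.17 (2.34-fold, adjusted p = 0.00184) and Rgs18 by 1.22 ± 0.22 (2.33-fold, adjusted p = 0.00942). P2rx1 rose by 1.19 ± 0.17 (adjusted p = 0.00207), Rab27b by 1.18 ± 0.12 (adjusted p = 0.000225), Rasgrp2 by 1.11 ± 0.13 (adjusted p = 0.000532) and F2rl3 by 0.96 ± 0.12 (adjusted p = 0.00076). The smaller gains were those of F2r, 0.67 ± 0.17 (1.59-fold, adjusted p = 0.0396), Pear1, 0.60 ± 0.10 (1.52-fold, adjusted p = 0.00646), and Fermt3, 0.51 ± 0.12 (1.42-fold, adjusted p = 0.0332). F2r did not pass with no filter, with median centring or with only the arrays compared (adjusted p = 0.0632, 0.0658 and 0.107), nor Fermt3 with centring (adjusted p = 0.0652). Of these calls, 7 held when any 1 array was left out. Those of Rgs18, F2r and Fermt3 did not, and without the male-labelled E12.5 WT array, 7 members passed. Without the 3 arrays whose sex markers opposed their label, 6 passed: Plek, F2rl3, P2rx1, Rasgrp2, Rab27b and Pear1.

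Within a stage the same differences rested on 2 arrays against 2. A fit of only those arrays gave the same differences with fewer residual degrees of freedom than the main fit. A call lost there is therefore no sign of a smaller difference. At E14.5 5 members passed in GATA1s against WT, against 1.07% of all tests (0.757% higher), namely Plek, F2rl3, P2rx1, Rasgrp2 and Rab27b. At E12.5 7 members passed, against 1.33% of all tests (0.824% higher), namely those 5 with F2rl2 and Pear1. All 10 differences were positive at each stage, with medians of 1.02 at E14.5 and 1.17 at E12.5. Neither count withstood the loss of certain arrays. No member passed at E14.5 without the WT array labelled female or the GATA1s array labelled male, and none at E12.5 without the WT array labelled male or either GATA1s array. Without the 3 opposing arrays, or in a fit of only the arrays compared, no member passed at either stage. P2rx1 at E14.5 was also lost with no filter, median centring, no sex term, arrayWeights or all probe sets (adjusted p from 0.0529 to 0.0826). Median centring ended the E12.5 calls of P2rx1 (adjusted p = 0.0537) and Pear1 (adjusted p = 0.0767).

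The second comparison set livers with both the transgene and the allele against WT, whose arrays also served in the first. The comparisons share groups, so their values are only set side by side. Over both stages all 10 members rose, when 10.6% of all tests passed and 4.06% passed with a higher signal, and the count stayed at 10 when any 1 array was left out. Plek rose by 1.24 ± 0.16 (adjusted p = 0.000722), Rasgrp2 by 1.17 ± 0.13 (adjusted p = 0.000225), F2rl2 by 1.13 ± 0.17 (adjusted p = 0.00168) and Fermt3 by 0.92 ± 0.12 (adjusted p = 0.000678). Pear1 had the smallest gain, 0.54 ± 0.10 (adjusted p = 0.00558). Without the 3 opposing arrays 7 members passed, all but Rgs18, F2r and F2rl2, and with arrayWeights Rgs18 was lost (adjusted p = 0.0672). Of the granulocyte and monocyte markers 4 of 11 also rose over both stages (median 0.64), and their part was not tested.

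At E14.5 9 members rose in ERG/GATA1s against WT, when 9.16% of all tests passed and 4.47% did so with a higher signal. The gains ran from 0.99 ± 0.23 for F2r (adjusted p = 0.0167) to 1.66 ± 0.23 for Plek (3.16-fold, adjusted p = 0.000632), with Fermt3 at 1.59 ± 0.17 (3.01-fold, adjusted p = 0.000135). Pear1 was 0.47 ± 0.15 higher and did not pass (adjusted p = 0.0643). Without the 3 opposing arrays 4 members passed, F2rl3, Rasgrp2, Fermt3 and Rab27b, and in a fit of only the arrays compared none did (Plek and Fermt3 at an adjusted p of 0.1). With Y-linked signal as covariate the E14.5 call of F2r was lost (adjusted p = 0.0607). At E12.5 no member passed limma's adjusted test, when 0.00615% of all tests passed, although all 10 differences were positive and 8 had an unadjusted p under 0.05. In a fit of only the arrays compared 6 members passed, a count given without the share of all tests in that fit. The median E12.5 difference was 0.78. F2rl3 and Fermt3 had the smallest, 0.24 ± 0.17 and 0.25 ± 0.17.

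**Figure D2:**
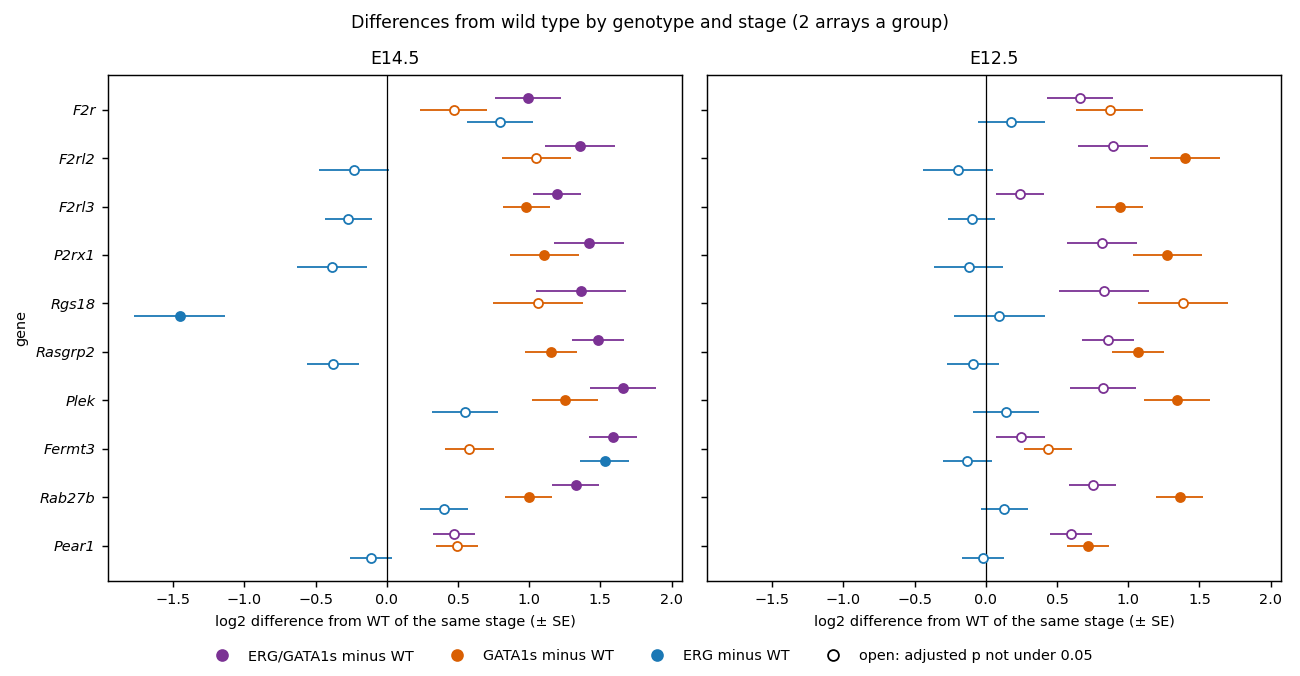
Log2 difference from WT of the same stage (horizontal axis, with its SE) for the 10 genes in ERG/GATA1s, GATA1s and ERG, E14.5 on the left and E12.5 on the right. Filled points passed limma's test at an adjusted p of 0.05. In ERG livers the filled points are Fermt3 above 0 and Rgs18 below 0, both at E14.5.

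With the ERG transgene alone few members passed. Over both stages Fermt3 was the 1 member that passed against WT, when 0.283% of all tests passed (0.24% higher), with a gain of 0.70 ± 0.12 (adjusted p = 0.0297, higher in 3 of 4 pairs). Leaving out 1 array ended it in 7 cases (both E12.5 WT arrays, both E12.5 GATA1s arrays, E12.5 ERG labelled male, and E14.5 ERG and WT labelled female), with an adjusted p up to 0.242. It also ended with median centring, with only the arrays compared and without the 3 opposing arrays. The median difference of the 10 members was -0.13, with 4 positive and 6 negative. At E12.5 no member passed in limma and none had an unadjusted p under 0.05. None of the 16258 tests passed there after adjustment (0%), and 666 had an unadjusted p under 0.05.

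At E14.5 2 members passed in ERG against WT, in opposite directions, when 1.69% of all tests passed (1.19% higher and 0.504% lower). Fermt3 rose by 1.53 ± 0.17 (2.89-fold, adjusted p = 0.000466, 2 of 2 pairs). This call held when any 1 array was left out, with an adjusted p of at most 0.0188, and without the 3 opposing arrays (adjusted p = 0.0118). It did not hold in a fit of only the 4 arrays compared, where the difference was 1.53 ± 0.11 (adjusted p = 0.581). Rgs18 fell by 1.46 ± 0.32 (adjusted p = 0.0339, lower in 2 of 2 pairs). The Rgs18 call was lost without either E12.5 ERG/GATA1s array, either E12.5 GATA1s array, or the arrays labelled female of E14.5 ERG and E14.5 WT (each left out alone, adjusted p up to 0.694), and without the 3 opposing arrays. It was also lost with no filter, median centring, trend and robust eBayes, all probe sets or only the arrays compared.

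The other 8 members in E14.5 ERG livers did not pass. F2r was 0.80 ± 0.23 higher (adjusted p = 0.134), Plek 0.55 ± 0.23 higher (adjusted p = 0.427) and Rab27b 0.40 ± 0.17 higher (adjusted p = 0.414). P2rx1, Rasgrp2, F2rl3, F2rl2 and Pear1 had negative differences, from -0.39 ± 0.24 for P2rx1 to -0.11 ± 0.15 for Pear1. The receptor pair of mouse platelets, F2rl3 and F2rl2, thus had differences of -0.27 ± 0.17 and -0.23 ± 0.24 in the livers in which Fermt3 rose.

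Markers of other cell types also differed between these groups. Granulocyte and monocyte markers (11 measured) averaged 6.25 and 6.42 in E14.5 ERG livers, against 7.75 and 7.02 in E14.5 WT livers. Of them 4 fell and none rose. Megakaryocyte markers (11 of 15 measured) averaged 7.20 and 7.39 in E14.5 ERG livers and 7.52 and 7.57 in E14.5 WT livers, with 4 called lower and 1 higher. Macrophage markers (10 measured) averaged 6.5 and 6.72 in E14.5 ERG livers, against 6.96 and 7.30 in E14.5 WT livers, with 2 called lower. Of the mast cell, basophil and eosinophil markers 7 of 12 were tested, and 4 of the 7 fell and none rose (median -0.80). The 12 averaged 3.94 and 4.03 in E14.5 ERG livers, against 4.58 and 4.42 in E14.5 WT livers. The gene most like Rgs18 over the 16 arrays was Fcer1g, the Fc receptor gamma chain of myeloid cells and platelets (r = 0.9838). The part of these cell types in the Rgs18 and Fermt3 values was not tested.

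The third comparison asked what the GATA1s allele did where the transgene was present. Over both stages 8 members were higher in ERG/GATA1s than in ERG livers, when 9.02% of all tests passed (4.02% higher), and the count stayed at 8 when any 1 array was left out. Rgs18 rose by 1.78 ± 0.22 (3.43-fold, adjusted p = 0.000454), Rasgrp2 by 1.40 ± 0.13 (adjusted p = 6.6e-05), P2rx1 by 1.37 ± 0.17 (adjusted p = 0.00045) and F2rl2 by 1.34 ± 0.17 (adjusted p = 0.000563). Fermt3 and F2r did not pass, with differences of 0.22 ± 0.12 (adjusted p = 0.3) and 0.34 ± 0.17 (adjusted p = 0.232). Without the 3 opposing arrays 6 members passed. Granulocyte and monocyte markers moved with the members here, with 10 of 11 called higher over both stages (median 1.27) and 9 of 11 at E14.5 (median 1.86). At E14.5 they averaged 8.15 and 7.76 in ERG/GATA1s livers, against 6.25 and 6.42 in ERG livers, and their part in the result was not tested.

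At E14.5, in the same comparison, Rgs18 rose by 2.82 ± 0.32 (7.06-fold, adjusted p = 0.000177). Rasgrp2 rose by 1.86 ± 0.18 (3.63-fold, adjusted p = 8.19e-05), P2rx1 by 1.81 ± 0.24 (3.49-fold) and F2rl2 by 1.59 ± 0.24. In all 8 members passed there, when 7.34% of all tests did (3.6% higher). Fermt3 differed by 0.06 ± 0.17 (adjusted p = 0.93) and F2r by 0.20 ± 0.23 (adjusted p = 0.764). Counts of 5 were found without the male-labelled E14.5 ERG array or the female-labelled E14.5 ERG/GATA1s array, and of 4 without the 3 opposing arrays. No member passed in a fit of only the arrays compared (lowest adjusted p = 0.0548). Pear1 was lost with median centring (adjusted p = 0.0636), and Plek and Pear1 with Y-linked signal as covariate (adjusted p = 0.0581 and 0.157). At E12.5 Rasgrp2 alone passed (0.95 ± 0.18, adjusted p = 0.032), when 1.05% of all tests passed (0.474% higher), and all 10 differences were positive. That call was lost without either E12.5 ERG array, either E12.5 GATA1s array or the male-labelled E12.5 ERG/GATA1s array (adjusted p up to 0.225). F2rl2 joined it without either E12.5 WT array, either E14.5 GATA1s array or the female-labelled E12.5 ERG/GATA1s array (2 members), and F2rl2 and Pear1 did so without either E14.5 WT array (3 members). No member passed without the 3 opposing arrays, with no filter, median centring, arrayWeights or no sex term, while 5 passed with a further quantile normalization or with only the arrays compared.

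The effect of adding the transgene to the allele was compared next. Over both stages none passed limma's test in ERG/GATA1s against GATA1s, when 0.117% of all tests did, and 1 member, Fermt3, had an unadjusted p under 0.05 (0.41 ± 0.12, adjusted p = 0.282). At E14.5 Fermt3 rose by 1.01 ± 0.17 (2.01-fold, adjusted p = 0.00964), the 1 member of 10 that passed, when 1.63% of all tests passed (0.701% higher). The call was lost without the female-labelled E14.5 GATA1s array or the female-labelled E14.5 ERG/GATA1s array (adjusted p up to 0.122), without the 3 opposing arrays (adjusted p = 0.23) and with only the arrays compared (adjusted p = 0.208). At E12.5 all 10 members were lower in ERG/GATA1s than in GATA1s, by a median of 0.48 and by 0.70 ± 0.17 for F2rl3. None passed in limma, where 0% of all tests did, and 3 members had an unadjusted p under 0.05.

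Whether transgene and allele together differed from the sum of the 2 was tested as an interaction, which set ERG/GATA1s minus GATA1s against ERG minus WT. No member passed in limma at E14.5, when 0.0984% of all tests did, or at E12.5, when 0% did, with 3 and 2 members at an unadjusted p under 0.05. Rgs18 had the largest E14.5 term, 1.76 ± 0.45 (adjusted p = 0.318), followed by Rasgrp2 with 0.71 ± 0.26 (adjusted p = 0.749). Fermt3 had an E14.5 term of -0.52 ± 0.24 (adjusted p = 0.997). Of the granulocyte and monocyte markers 4 of 11 passed at E14.5, all positive.

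The stages were compared within each genotype, with E14.5 set against E12.5. In GATA1s livers 7 fell, when 22.5% of all tests changed and 8.67% fell, and all 10 differences were negative. F2rl2 fell by 1.03 ± 0.24 (adjusted p = 0.00812), P2rx1 by 0.93 ± 0.24 (adjusted p = 0.0143) and Plek by 0.78 ± 0.23 (adjusted p = 0.0289). No member passed without the arrays labelled female of E12.5 or E14.5 GATA1s (each left out alone), 1 without the male-labelled E12.5 GATA1s array and 2 without the 3 opposing arrays. Pear1 was also lost with median centring or trend and robust eBayes (adjusted p = 0.0612 and 0.059). Of the granulocyte and monocyte markers 8 of 11 fell and 1 rose in the same comparison. Other lists moved otherwise. By list mean, hepatocyte markers went from 8.52 at E12.5 to 11.07 at E14.5 and macrophage markers from 5.5 to 7.21. Megakaryocyte markers went from 8.8 to 8.53. The part of these cell types in the stage differences was not tested. In WT livers P2rx1 and Fermt3 fell, by 0.76 ± 0.24 (adjusted p = 0.0444) and 0.87 ± 0.17 (adjusted p = 0.00381), when 18.2% of all tests changed and 6.75% fell. Fermt3 lost its call in WT without the male-labelled E12.5 WT array (adjusted p = 0.0532), where 4 members passed, as they did without either E14.5 GATA1s array. P2rx1 lost its call without the female-labelled E12.5 WT array, either E12.5 GATA1s array, or any E14.5 array of ERG/GATA1s, ERG or WT (1 member left), and without the 3 opposing arrays. P2rx1 was also lost with no filter, median centring, arrayWeights or all probe sets (adjusted p from 0.0505 to 0.0731). Neither passed with only the arrays compared.

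In ERG livers 2 members fell between the stages and 1 rose. There Rgs18 fell by 1.74 ± 0.32 (adjusted p = 0.00242) and P2rx1 by 1.03 ± 0.24 (adjusted p = 0.0109), while Fermt3 rose by 0.79 ± 0.17 (1.73-fold, adjusted p = 0.00633), when 17.6% of all tests changed, 12.7% higher and 4.88% lower. Of the granulocyte and monocyte markers 9 of 11 fell and 1 rose there, and of the mast cell, basophil and eosinophil markers 4 of 7 fell and none rose. By list mean, hepatocyte markers went from 9.51 at E12.5 to 10.56 at E14.5 and macrophage markers from 5.73 to 6.61. Megakaryocyte markers went from 7.27 to 7.29. The Rgs18 call held when any 1 array was left out. P2rx1 lost its call without the male-labelled E12.5 ERG array or either E14.5 ERG array, and Fermt3 without either ERG array labelled female, of which the E14.5 one left 1 member called. Without either E14.5 WT array 5 members passed, as with the stricter filter, and with only the arrays compared none did (adjusted p = 0.0749 for Rgs18). In ERG/GATA1s livers F2rl3 was the 1 member that passed, with a gain of 0.74 ± 0.17 (1.67-fold, adjusted p = 0.00748), when 21.9% of all tests changed (14% higher). Its call was lost without either ERG/GATA1s array labelled male (adjusted p up to 0.116; the E14.5 one left 0 members called), without the 3 opposing arrays, with arrayWeights (adjusted p = 0.0764) and with Y-linked signal as covariate (adjusted p = 0.0559). A second member passed without either E12.5 ERG array or the female-labelled E12.5 ERG/GATA1s array (2 members).

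An F test of whether the stage difference depended on genotype passed for Fermt3 alone among the members (adjusted p = 0.0048), when 2.42% of all tests passed. The stage difference of Fermt3 was 0.48 in ERG/GATA1s, -0.73 in GATA1s, 0.79 in ERG and -0.87 in WT. It exceeded that in WT by 1.35 ± 0.24 in ERG/GATA1s (adjusted p = 0.0282, when 0.609% of all tests passed and 0.406% were higher) and by 1.66 ± 0.24 in ERG (adjusted p = 0.0164, when 0.228% passed and 0.221% were higher). It exceeded that in WT by 0.15 ± 0.24 in GATA1s (adjusted p = 0.9, when 0.351% passed). The ERG/GATA1s term was lost with arrayWeights (adjusted p = 0.31) and with Y-linked signal as covariate (adjusted p = 0.084). The F test for Fermt3 held without any 1 array (adjusted p up to 0.0243) and did not pass without the 3 opposing arrays (adjusted p = 0.136). Without the female-labelled E12.5 WT array 2 members passed, and without either WT array labelled male 3 did.

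Across the 16 arrays most members followed each other. The 45 Pearson correlations between them had a median of 0.8305 and ran from 0.0352 (Rgs18 with Fermt3) to 0.9759 (F2rl2 with P2rx1). These are descriptions over arrays that share stage and genotype groups. Each member was compared with the mean of the other 9, and r was lowest for Fermt3 (0.3905) and F2r (0.7311) and highest for Plek (0.9636). Fermt3 was the least alike partner of 8 of the other 9 members, F2r being the exception.

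**Figure D3:**
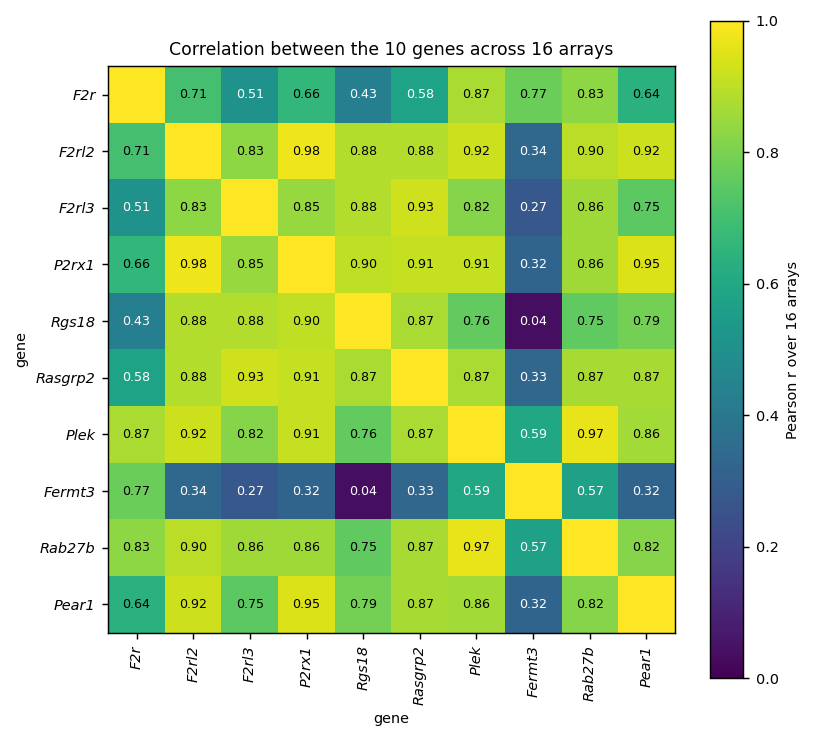
Pearson correlation over 16 arrays for each pair of the 10 genes (colour from 0 to 1, value in each cell). Fermt3 stands out by its low values, down to 0.04 with Rgs18, while its highest, 0.77, is with F2r.

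The genes most like the mean of the 10 members over 16 arrays were S100a1 (r = 0.9782), Prkca (r = 0.9762), Mmrn1 (r = 0.972), Thbs1 (r = 0.9692) and Lat (r = 0.9661). They were followed by Atp2a3, F13a1, I830077J02Rik, Pygm and Mrvi1, with r from 0.9648 to 0.9576. Prkca encodes a protein kinase C, Mmrn1 and Thbs1 encode proteins of platelet alpha granules, Lat encodes an adaptor of collagen receptor signalling and F13a1 a clotting factor subunit. Single members had different nearest genes. P2rx1 was nearest to Prkca (r = 0.9889), F2rl3 to Pf4 (r = 0.9591), Rasgrp2 to Itgb3 (r = 0.9511), Pear1 to Pdgfb (r = 0.9583) and Plek and Rab27b to each other (r = 0.9674). F2r was nearest to Cap2 (r = 0.9646) and Fermt3 to Sla2 (r = 0.9748).

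Other genes of the same pathways were counted from 5 lists, which were also chosen with earlier results of these data known. Itga2b, Itgb3 and Clec1b of these lists are also among the megakaryocyte markers. Prkca, Lat and Atp2a3 of these lists, and the marker Mmrn1, are among the genes most like the members' mean. The lists, the markers and the most alike genes are therefore not separate sets. In GATA1s against WT over both stages, 6 of 24 tested genes of thrombin and G protein signalling rose and none fell. They included Prkcq, another protein kinase C (1.32 ± 0.19, adjusted p = 0.00193), Prkca (1.17 ± 0.17, adjusted p = 0.00188), Gnaz, a G protein alpha subunit of platelets (1.03 ± 0.15, adjusted p = 0.00179), and Arrb2, a beta-arrestin (0.57 ± 0.10, adjusted p = 0.00656). The list's median difference was 0.25, against 0.005 over all tests.

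Of 26 genes of calcium, Rap1 and integrin activation 8 rose and none fell in the same comparison, with a median of 0.16. They included Itgb3 and Itga2b, the subunits of the platelet integrin (1.26 ± 0.16, adjusted p = 0.000991, and 1.18 ± 0.15, adjusted p = 0.000901), Atp2a3, a calcium pump (1.17 ± 0.14, adjusted p = 0.000761), and Orai1, a calcium channel (0.50 ± 0.09, adjusted p = 0.00992). Of 20 genes of collagen and ITAM receptor signalling 9 rose and none fell, with a median of 0.47, led by Lat (1.38 ± 0.16, adjusted p = 0.000536) and Mpig6b, an inhibitory receptor of megakaryocytes (1.23 ± 0.20, adjusted p = 0.00465). Lcp2, an adaptor, and Fcer1g rose by 0.80 ± 0.14 and 0.78 ± 0.14.

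Of 20 tested granule genes, 3 rose in GATA1s against WT and none fell, namely Slc35d3 (0.99 ± 0.15, adjusted p = 0.00245), Nbeal2 (0.63 ± 0.10, adjusted p = 0.00382) and Stx11 (0.58 ± 0.14, adjusted p = 0.033). Nbeal2 is required for alpha granules and Slc35d3 for dense granules. Among 13 tested relatives of the members 3 rose and none fell, the RGS genes Rgs1 (1.61 ± 0.18, adjusted p = 0.000442) and Rgs2 (1.06 ± 0.18, adjusted p = 0.00605) and the GTPase gene Rab37 (0.51 ± 0.11, adjusted p = 0.0212).

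In ERG/GATA1s against WT over both stages the counts were 9 higher and none lower of 24 for thrombin and G protein signalling, 12 higher and 2 lower of 26 for calcium, Rap1 and integrin activation, 14 higher and none lower of 20 for collagen and ITAM signalling, 3 higher and none lower of 20 for granule release and 4 higher and none lower of 13 relatives. Itga2b rose by 1.44 ± 0.15 (adjusted p = 0.000191) and Prkcq by 1.67 ± 0.19 (adjusted p = 0.000236). In E14.5 ERG livers the lists held calls in both directions. Prkcq (1.36 ± 0.27, adjusted p = 0.0187), Arrb2 (0.80 ± 0.14, adjusted p = 0.00906), Vav1 (0.82 ± 0.19, adjusted p = 0.0475), Rab38 (0.96 ± 0.14, adjusted p = 0.00288) and Unc13d (1.11 ± 0.19, adjusted p = 0.00858) rose. Itgb3 fell by 1.23 ± 0.23 (adjusted p = 0.0131) and Plcg2, a phospholipase C of collagen signalling, fell by 0.87 ± 0.19 (adjusted p = 0.0319). These were all the calls in the 5 lists there.

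**Figure D4:**
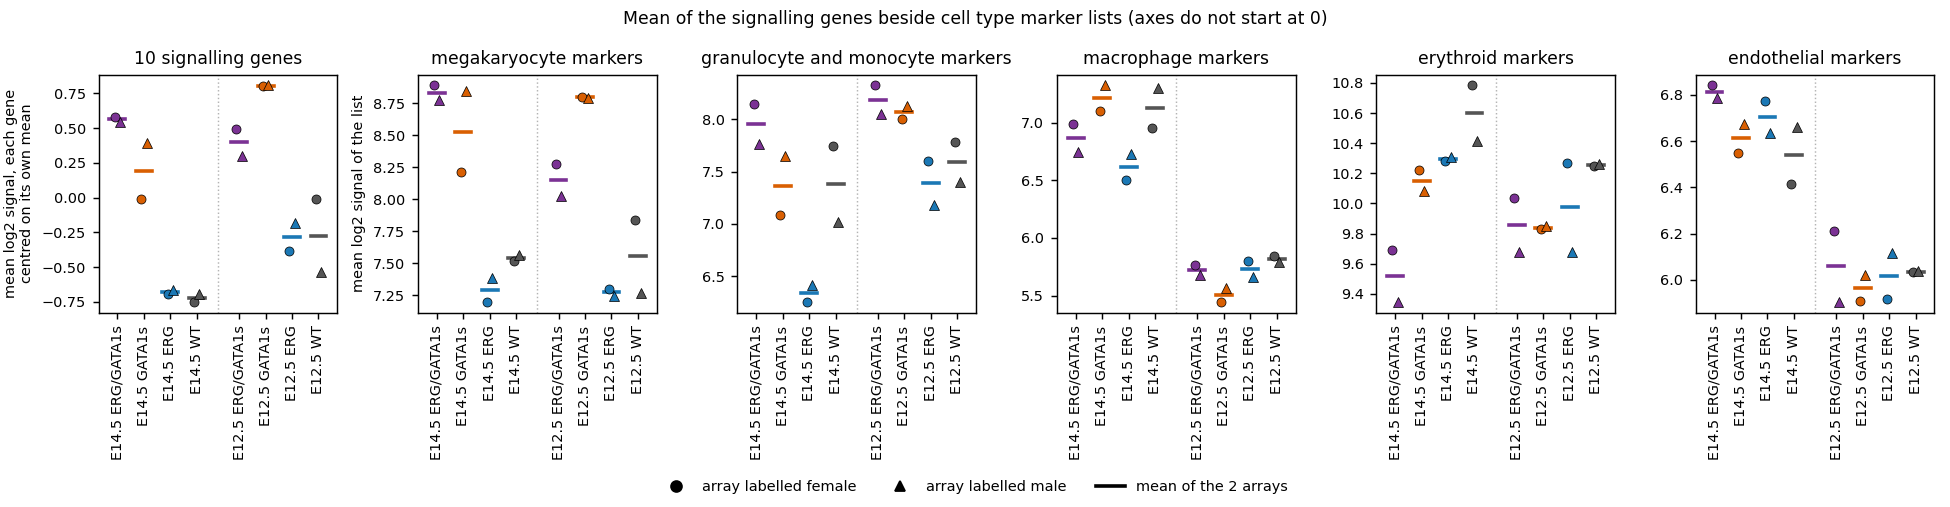
Mean of the 10 signalling genes, each centred on its own mean (left panel, log2), beside the mean log2 signal of 5 cell type marker lists, by stage and genotype. Circles are arrays labelled female, triangles arrays labelled male, and bars the mean of the 2 arrays. By group mean, the signalling genes and the megakaryocyte markers are highest in the groups with the GATA1s allele, and the granulocyte and monocyte markers are lowest in E14.5 ERG.

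By group mean the megakaryocyte markers, like the mean of the members, were highest in the groups with the GATA1s allele. Their mean was 8.89 and 8.77 in ERG/GATA1s, 8.21 and 8.84 in GATA1s, 7.20 and 7.39 in ERG and 7.52 and 7.57 in WT at E14.5. At E12.5 their mean was 8.28 and 8.03 in ERG/GATA1s, 8.80 and 8.80 in GATA1s, 7.30 and 7.25 in ERG and 7.84 and 7.27 in WT. From E12.5 to E14.5 the marker mean went from 7.55 to 7.54 in WT and from 7.27 to 7.29 in ERG. The median stage differences of the members there were -0.31 and -0.35. In GATA1s the marker mean went from 8.8 to 8.53 (member median -0.68) and in ERG/GATA1s from 8.15 to 8.83 (member median 0.23). In GATA1s against WT over both stages 10 of 11 megakaryocyte markers rose and none fell, with a median of 1.05, and in ERG/GATA1s against WT 9 rose and 1 fell. Erythroid markers (8 measured) fell for 3 of 8 in GATA1s against WT and for 8 of 8 in ERG/GATA1s against WT over both stages. Macrophage markers had no call in GATA1s against WT, and 7 of 11 hepatocyte markers fell in GATA1s against WT at E12.5. At that stage the hepatocyte markers averaged 8.76 and 8.55 in ERG/GATA1s and 8.52 and 8.51 in GATA1s. They averaged 9.81 and 9.2 in ERG and 9.7 and 9.6 in WT. The E14.5 averages were 10.89 and 10.56 in ERG/GATA1s, 11 and 11.13 in GATA1s, 10.5 and 10.62 in ERG, and 10.33 and 11.02 in WT. Of the 12 mast cell, basophil and eosinophil markers, Cpa3, Tpsb2, Prg2, Epx and Hdc were above the filter level of 3.74 on all 16 arrays, and Fcer1a, Ms4a2, Cma1, Mcpt8 and Gzmb were below it on all 16. Of the 12 lymphoid markers, Cd79b, Igll1 and Cd3e were above it on all 16 arrays, and Cd79a, Rag2 and Dntt were below it on all 16. The part of cell composition in the members' values was not tested.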

How the data were processed

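Total RNA from fetal liver suspensions was labelled with biotin and read on 16 Affymetrix arrays, per the labels' protocols. The deposited values are log2 signals made by the authors with RMA, per the submitters' processing notes, with no version. No scanner file was used, and background correction stayed as deposited. Each gene was represented by its probe set of highest mean, and kept where 2 or more arrays exceeded 3.74, the 30th percentile of the whole table: 15742 with 1 symbol and 516 with several.

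One limma fit (version 3.58.1, R 4.3.3) took all 16 arrays, with 8 group means and labelled sex (7 residual degrees of freedom), eBayes and two-sided tests, adjusted with Benjamini-Hochberg over all 16258 tests. Comparisons over both stages average the stage differences. Labelled sex has 1 array of each label in every group, so it also acts as a replicate block. The fit was tested on simulated data.

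The members and lists were chosen with earlier results of these data known. Genes outside the 10 were named from the up to 4 of smallest p per list and comparison, and from those most correlated. Not all of these were named. In ERG/GATA1s against WT over both stages, Atp2a3 had a smaller p than Itga2b of the same list. Alternatives were no filter and a stricter one (50th percentile), a further quantile normalization, median centring, arrayWeights, dropping the sex term, every probe set in place of 1 a gene, eBayes with a trend and robust option, a fit of only the arrays compared, and each array left out. Leaving out the 3 arrays whose sex markers opposed their label, and Y-linked signal as covariate, were chosen after seeing the data. Promoters came from RefSeq tables (GRCm38.p6), and 8 of 10 members matched. Probe set positions were not used here.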

Additional observations from a re-analysis of the deposited data

Results flagged for a closer look

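Fermt3 was the 1 member whose change between the stages differed between genotypes by a test of that difference (F test over the 3 stage by genotype terms in limma, adjusted p = 0.0048). Its stage difference in ERG livers exceeded that in WT livers by 1.66 on the log2 scale (adjusted p = 0.0164), and in ERG/GATA1s livers by 1.345 (adjusted p = 0.0282), 2 arrays in each group. The ERG term did not pass without either ERG array labelled female or either E12.5 WT array (adjusted p up to 0.148). The ERG/GATA1s term did not pass in 8 of the 16 fits that left out 1 array, with an adjusted p up to 0.136. These were the fits without either E12.5 GATA1s array, either E12.5 WT array, the E14.5 WT array labelled female, either E14.5 ERG/GATA1s array, or the male-labelled E12.5 ERG/GATA1s array. It was also lost with arrayWeights (adjusted p = 0.31) and with Y-linked signal as covariate (adjusted p = 0.084). Without the 3 arrays whose sex markers opposed their label neither term passed. The ERG term uses none of these arrays and stayed at 1.66 ± 0.24. The ERG/GATA1s term was 1.07 ± 0.32 there.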

How the results depend on the processing

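Of 75 calls of members 39 held when any 1 array was left out, 34 held without the 3 arrays whose sex markers opposed their label, and no sign of a call turned under any alternative. With single arrays left out, members called ranged as follows, given without the share of all tests in those fits. GATA1s against WT gave 0 to 6 at E14.5 and 0 to 8 at E12.5. ERG against WT gave 0 to 1 over both stages and 1 to 3 at E14.5. ERG/GATA1s against WT gave 0 to 2 at E12.5. ERG/GATA1s against ERG gave 5 to 8 at E14.5 and 0 to 3 at E12.5, and ERG/GATA1s against GATA1s gave 0 to 1 at E14.5. E14.5 against E12.5 gave 0 to 2 in ERG/GATA1s, 0 to 7 in GATA1s, 1 to 5 in ERG and 1 to 4 in WT, and the F test 1 to 3.

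Without the 3 arrays, counts moved to 6 in GATA1s against WT over both stages and 0 at each stage, 0 and 1 in ERG against WT over both stages and at E14.5, 4 in ERG/GATA1s against WT at E14.5, 4 and 0 in ERG/GATA1s against ERG at E14.5 and E12.5, 0 in ERG/GATA1s against GATA1s at E14.5, 0, 2 and 1 between stages in ERG/GATA1s, GATA1s and WT, and 0 in the F test. With only the arrays compared, counts were 0 in GATA1s against WT at each stage, in ERG against WT over both stages and at E14.5, in ERG/GATA1s against WT, ERG and GATA1s at E14.5, and between stages in ERG and WT, but 6 and 5 in ERG/GATA1s against WT and ERG at E12.5. For the F test these are the same arrays. ERG against WT at E14.5 gave 1 with no filter, median centring, trend and robust eBayes or all probe sets, and over both stages 0 with centring. ERG/GATA1s against ERG at E12.5 gave 0 with no filter, centring, no sex term or arrayWeights, 2 with the stricter filter or trend and robust eBayes, and 5 with quantile normalization. Stage counts moved to 2 (quantile) and 0 (arrayWeights) in ERG/GATA1s, to 5 (stricter filter) and 6 (quantile, arrayWeights) in ERG, and to 1 (no filter, centring, arrayWeights, all probe sets) and 4 (quantile) in WT. The F test gave 2 with the stricter filter or quantile normalization. The causes were not tested.

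Without the replicate block, that is without the sex term, no other count moved by over 1.5 times. That fit ended the calls of P2rx1 in GATA1s against WT at E14.5 (adjusted p = 0.0529) and Rasgrp2 in ERG/GATA1s against ERG at E12.5 (adjusted p = 0.0648). With 2 arrays a group, a difference that did not pass is not shown to be absent.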

Other observations

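For 2 of the 10 members a neighbour in the genome had a like pattern, an observation made after the values were seen. Atp2a3, a calcium pump gene, is the protein-coding gene next to P2rx1 on chromosome 11. Over 16 arrays it followed P2rx1 with r = 0.9507, and it rose by 1.17 ± 0.14 in GATA1s against WT (adjusted p = 0.000761). Pygm, which encodes muscle glycogen phosphorylase, is next to Rasgrp2 on chromosome 19, followed it with r = 0.8604 and rose by 0.69 ± 0.10 (adjusted p = 0.00196). Both are among the 10 genes most like the members' mean. Of 20 neighbour positions 14 held a tested gene, and these 2 were the ones with r above 0.8.

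Neighbours of Plek on chromosome 11 did not follow it over the 16 arrays (r = 0.0401 for Cnrip1 and -0.3869 for Fbxo48). Cnrip1 rose by 2.07 ± 0.19 in ERG against WT at E14.5 (adjusted p = 0.000116). Plek did not pass there (adjusted p = 0.427), though it was higher, with 8.80 and 8.57 in ERG and 8.08 and 8.19 in WT. On the other side, Fbxo48 rose by 1.01 ± 0.20 in the same comparison (adjusted p = 0.0216). It fell by 0.58 ± 0.14 in GATA1s against WT over both stages (adjusted p = 0.0401). F2r and F2rl2 lie on chromosome 13 with Iqgap2 between them, and Iqgap2 followed neither (r = -0.0933 and -0.2667).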
